A study of Mus musculus with 4 samples.

Results

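The genes described here encode the subunits of the proteasome and its regulators, chosen as all row names of the deposited count table that begin with Psm, one of the letters a to f, and a digit. The pattern matched 46 of 17391 genes. They were 7 alpha and 7 beta subunits of the 20S core, 3 immunoproteasome subunits, 2 tissue-specific core subunits, 6 ATPases and 11 other subunits of the 19S cap, 3 assembly chaperones of that cap, 4 activators, 1 inhibitor, and 2 further matches, Psmc3ip and Psme2b. Psmc3ip is named for binding an ATPase of the cap and acts in meiotic recombination, so it is no subunit, and Psme2b is an intronless copy of the activator gene Psme2.

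The proteasome is the protease that degrades proteins tagged with ubiquitin. Its barrel-shaped 20S core stacks outer rings of alpha subunits, which form the gate, on inner rings of beta subunits, of which Psmb5, Psmb6 and Psmb7 carry the active sites. The 19S cap binds ubiquitin chains, removes them, unfolds the substrate with its ring of ATPases and feeds it into the core. Under interferon, Psmb8, Psmb9 and Psmb10 replace Psmb5, Psmb6 and Psmb7 to form the immunoproteasome, which makes peptides for antigen presentation. In fibroblasts the proteasome clears short-lived signalling proteins, components of the TGF-β pathway among them.

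RNA was counted by Drop-seq, which captures single cells in droplets with barcoded beads and reads the 3′ ends of transcripts, in 4 libraries, each from a culture of Gli1-positive primary cells of the kidney of male mice aged 12 weeks. Gli1 marks perivascular mesenchymal cells that can become myofibroblasts. The sources used here do not say how the cells were marked or how many animals gave them. A control, labelled 0 h, was harvested after 2 h without serum and got no TGF-β, and the other cultures, after the same 2 h, received TGF-β at 1 ng/ml for 6, 12 and 24 h. Each time point had 1 library, so no condition could be tested, and values describe the libraries. Time with TGF-β and time without serum cannot be told apart. Levels are in CPM, the count scaled by the total count of the library. Ranges in parentheses are exact 95% intervals of counting error only. Each transcript is tagged near its 3′ end, so no division by length was made, and levels of different genes can differ by capture of that end.

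The libraries were unequal in depth and content. They held 106826, 778793, 5687966 and 6166324 counts in time order, in 192, 658, 1120 and 1328 barcodes, and no barcode was shared between libraries. A single count was worth 9.36, 1.28, 0.176 and 0.162 CPM in the same order. The content of the library labelled 0 h did not match that label. Proximal tubule markers summed to 16859 CPM there, against 3.34 to 5.14 CPM in the TGF-β libraries, with all 9 counted. The 8 mesenchymal markers in the table summed to 37.4 CPM there, with 6 of 8 at 0, and to 2681, 5578 and 6824 CPM at 6, 12 and 24 h. Differences from it are given last, as differences between libraries, and tubule content and time cannot be told apart in them.

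Proteasome genes took a similar share of the RNA in all TGF-β libraries. Their counts were 1.22% (1.20 to 1.25) of the library at 6 h, 1.27% (1.26 to 1.28) at 12 h and 1.14% (1.13 to 1.15) at 24 h, and 0.211% (0.184 to 0.240) in the library labelled 0 h. The summed level at 12 h was 1.04 times (1.02 to 1.06) that at 6 h, but 0.955 times with TMM scaling and 0.920 times with DESeq2 size factors, so its direction depends on the scaling. At 24 h it was 0.899 times (0.890 to 0.909) that at 12 h and 0.933 times (0.913 to 0.953) that at 6 h. With TMM or DESeq2 scaling the ratio of 24 h to 12 h lay above its interval, so its size also depends on the scaling. Those values are given in the closing section. Of the 46 genes, 41 averaged 20 CPM or more over the TGF-β libraries, and the other 5 were Psmb8, Psmb9, Psma8, Psmb11 and Psme2b. Psma8 of the testis had 1 count in all, at 12 h, and Psmb11 of the thymic cortex had 1 count, at 24 h. Within single barcodes of at least 1000 counts, proteasome genes took a median of 1.23% of a barcode's counts at 6 h (quartiles 1.02% and 1.44%, 80 barcodes), 1.26% at 12 h (1.14% and 1.40%, 865 barcodes) and 1.15% at 24 h (1.04% and 1.28%, 933 barcodes). The quartile ranges overlapped between all TGF-β libraries. In the library labelled 0 h the median was 0.122% over 13 barcodes, and its highest barcode, at 0.321%, lay below the lower quartile of every TGF-β library.

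**Figure D1:**
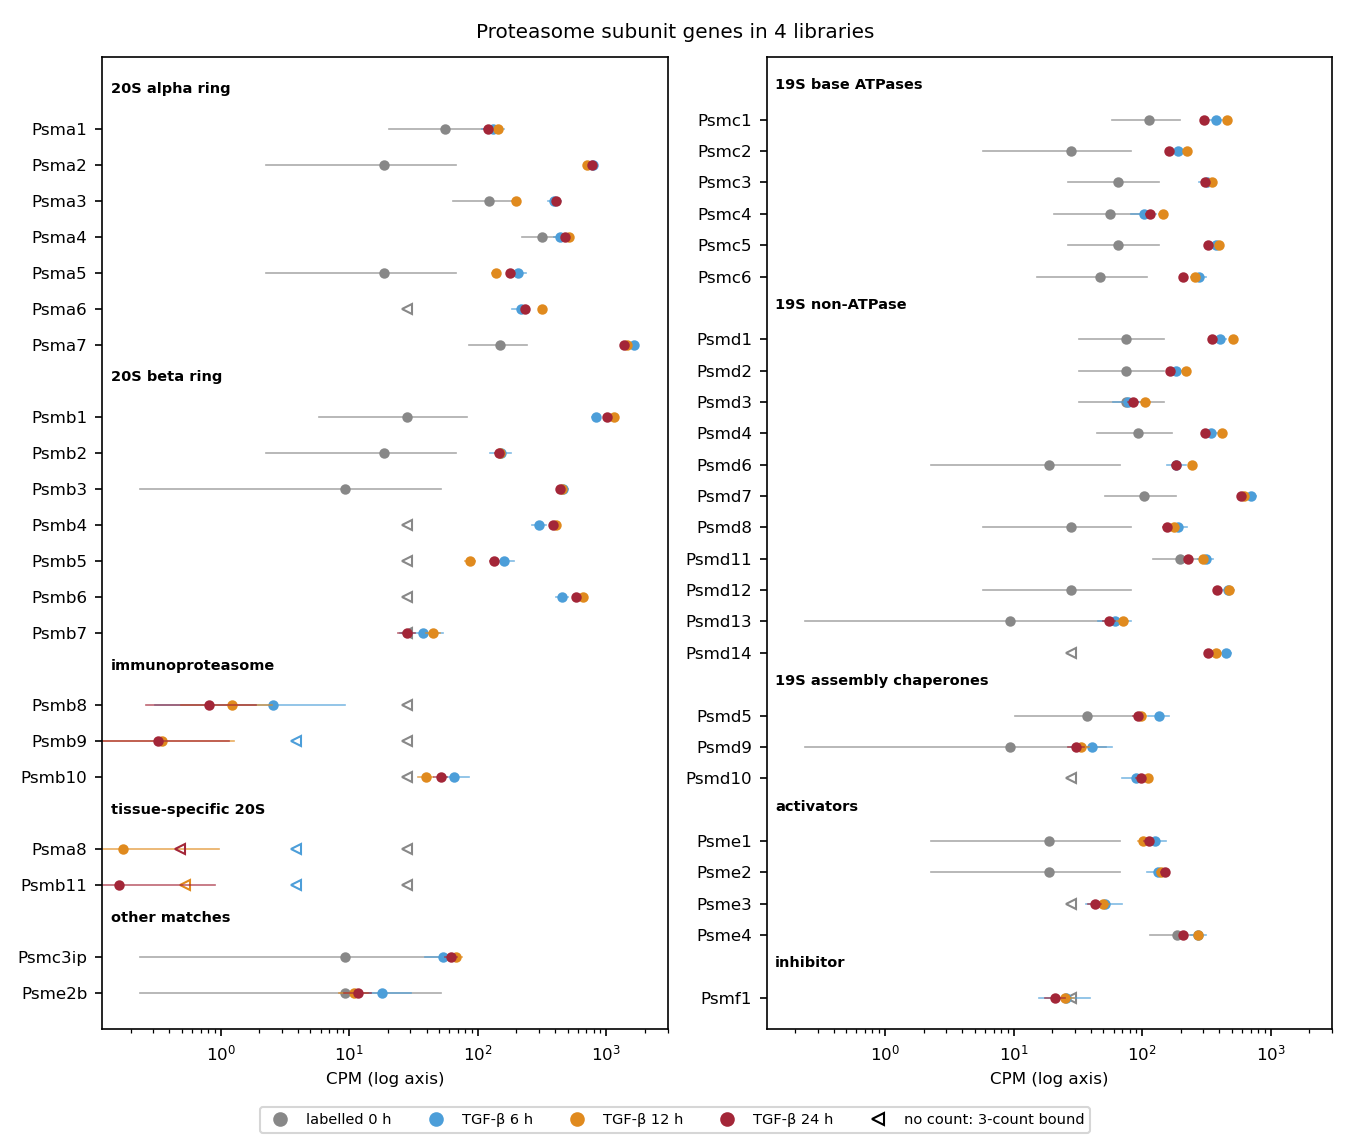
Level of each of the 46 genes in CPM on a log axis, by group, in the library labelled 0 h (grey), at 6 h (blue), 12 h (orange) and 24 h (red), with exact Poisson 95% intervals as lines. Open triangles stand for genes without a count and sit at the level 3 counts would give. The TGF-β libraries lie close together for most genes, with Psma3 and Psmb5 lower at 12 h, and Psmb8 and Psmb9 lie near 0.

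Few members differed by 1.5-fold or more between TGF-β libraries. Such calls were made on the log2 scale of CPM plus 10, for genes whose mean over both libraries was 20 CPM or more, which 41 members met in each of the 3 comparisons. At 12 h against 6 h, 0 members were higher and 3 lower (Psma3, Psmb5 and Psmb10), beside 16.9% of all 6355 genes higher and 7.27% lower. At 24 h against 12 h, 1 was higher (Psma3) and 1 lower (Psmc1), beside 2.38% of 6469 genes higher and 3.4% lower. Between 24 h and 6 h, 0 were higher and 0 lower at 24 h, beside 13.5% of 6238 genes higher and 8.95% lower. Wherever any member was called, the share of the 41 called was close to that of all genes. Where none was called, higher at 12 h against 6 h and either way at 24 h against 6 h, it lay below that share. All genes were not matched to the members for level. No p-value belongs to these counts. The median log2 ratio of the members was 0.07, -0.18 and -0.16 in these 3 comparisons, against 0.15, -0.11 and 0.04 for all genes. With TMM scaling the median of all genes moved to 0.05, 0.00 and 0.04.

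**Figure D2:**
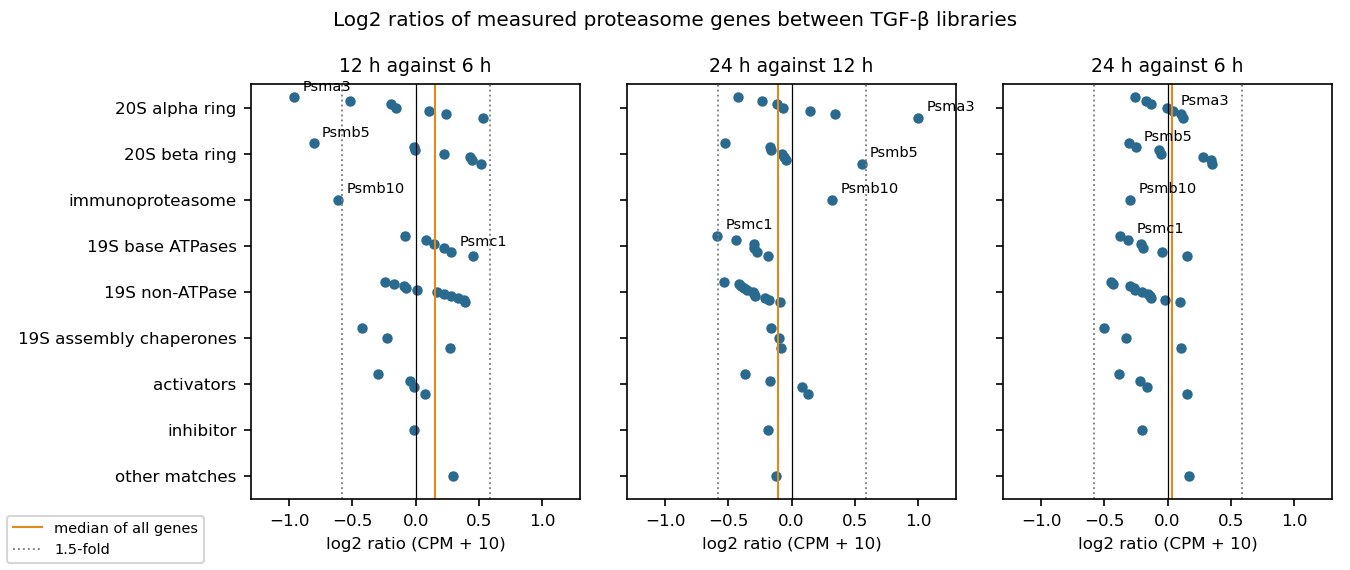
Log2 ratio of CPM plus 10 for each measured member, by group, at 12 h against 6 h, 24 h against 12 h and 24 h against 6 h. The orange line is the median of all genes and dotted lines mark 1.5-fold. Psma3 and Psmb5 stand lowest at 12 h and highest at 24 h against 12 h, and all 19S members lie left of 0 at 24 h against 12 h.

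Within the alpha ring, Psma3 stood apart. It encodes a structural subunit of that ring, and had 122 CPM (64.8 to 208) in the library labelled 0 h, 394 (351 to 441) at 6 h, 198 (187 to 210) at 12 h and 406 (390 to 422) at 24 h. The levels at 6 and 24 h overlap in their intervals and the 12 h level lies below both. It was 1.99-fold (1.75 to 2.26) lower at 12 h relative to 6 h, and 2.05-fold (1.91 to 2.20) higher at 24 h relative to 12 h. As a share of alpha ring counts, which needs no library scaling, Psma3 made up 10.3% (9.27 to 11.5) at 6 h, 5.73% (5.41 to 6.06) at 12 h and 11.4% (11.0 to 11.8) at 24 h. The same dip was present at every barcode depth: in barcodes under 1000 counts Psma3 had 417, 154 and 369 CPM at 6, 12 and 24 h, in barcodes of 1000 to under 5000 counts 432, 177 and 409 CPM, and in barcodes of 5000 or more 377, 205 and 406 CPM. Its counts came from 138, 544 and 814 barcodes, and the single largest barcode held 18, 10 and 16 of them.

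The beta ring held a second gene of this shape, Psmb5, which encodes the chymotrypsin-like active site, the main target of proteasome inhibitors. It had no count in the library labelled 0 h, 161 CPM (134 to 191) at 6 h, 87.6 (80.0 to 95.6) at 12 h and 133 (124 to 143) at 24 h. It was 1.83-fold (1.49 to 2.23) lower at 12 h relative to 6 h. At 24 h it was 1.52-fold (1.36 to 1.70) higher relative to 12 h. That last difference, a log2 ratio of 0.55, fell short of the 1.5-fold limit with the pseudocount. With TMM or DESeq2 scaling it was 0.67 in each and passed the limit, so that call rests on the setting. Psmb6, the caspase-like active site, went the other way, with no count in the library labelled 0 h, 456 CPM (410 to 506) at 6 h, 656 (635 to 677) at 12 h and 582 (563 to 602) at 24 h. It was 1.44-fold (1.29 to 1.61) higher at 12 h relative to 6 h. Psmb7, the trypsin-like active site, had no count in the library labelled 0 h, then 37.2 CPM (24.9 to 53.5), 45.2 (39.8 to 51.1) and 28.2 (24.2 to 32.7), 1.60-fold (1.32 to 1.95) lower at 24 h relative to 12 h. Psmb5 thus took 24.6% (20.9 to 28.5) of the counts of these catalytic genes at 6 h, 11.1% (10.2 to 12.1) at 12 h and 17.9% (16.8 to 19.04) at 24 h, while Psmb6 took 69.7%, 83.2% and 78.3%. In barcodes of 5000 or more counts the Psmb5 share was 25.2%, 11.2% and 18.0%.

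The promoters of Psma3, Psmb5 and Psmb6 are shown because these core genes moved in opposite directions at 12 h. Each runs from 250 bases before to 50 bases after the start site, 5′ to 3′, from RefSeq on GRCm38.p6, the assembly of mm10. Capitals mark matches on either strand to TGACNNNGC, a core of the antioxidant response element that NRF transcription factors bind, and to CCAAT, which NF-Y binds.
Psma3, chr12:70974373-70974672, plus strand: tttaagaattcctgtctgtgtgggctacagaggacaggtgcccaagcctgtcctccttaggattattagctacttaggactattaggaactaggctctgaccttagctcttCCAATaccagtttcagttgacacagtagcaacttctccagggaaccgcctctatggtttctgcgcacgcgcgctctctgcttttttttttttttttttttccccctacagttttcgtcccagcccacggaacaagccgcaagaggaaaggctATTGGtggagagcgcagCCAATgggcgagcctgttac
Psmb5, chr14:54617946-54618245, minus strand: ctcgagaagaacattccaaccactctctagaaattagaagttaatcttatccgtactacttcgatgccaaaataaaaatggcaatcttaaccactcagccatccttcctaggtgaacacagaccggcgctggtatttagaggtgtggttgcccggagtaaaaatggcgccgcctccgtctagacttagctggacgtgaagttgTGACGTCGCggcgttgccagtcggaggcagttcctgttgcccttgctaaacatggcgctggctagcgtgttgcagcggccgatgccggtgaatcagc
Psmb6, chr11:70525107-70525406, plus strand: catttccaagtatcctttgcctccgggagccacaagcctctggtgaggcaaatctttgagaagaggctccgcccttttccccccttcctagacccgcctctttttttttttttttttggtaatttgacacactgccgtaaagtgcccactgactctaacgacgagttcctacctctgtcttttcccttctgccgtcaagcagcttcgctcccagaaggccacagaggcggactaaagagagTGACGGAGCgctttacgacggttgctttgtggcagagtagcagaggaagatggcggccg
Psmb5 and Psmb6 each held 1 match to TGACNNNGC and none to CCAAT, and Psma3 held 3 matches to CCAAT, 1 of them on the minus strand, and none to TGACNNNGC. Neither was typical of the genes as a set. Of the 46 members, 39 had a promoter in the table, and 6 of these, or 15.4%, held TGACNNNGC, against 12.5% of all 27025 genes in it. CCAAT was held by 15, or 38.5%, against 37.9%. A fixed core pattern of the interferon-stimulated response element had no match in the windows scanned for Psmb8, Psmb9 and Psmb10. It matched in 4 members (10.3%) and in 3.49% of all genes. The windows of Psmb8 (chr17:34197945-34198244, plus strand) and Psmb9 (chr17:34187281-34187580, minus strand) lay wholly inside the annotated genes. The 5′ ends of these genes are at 34197721 and 34187764. Sequence upstream of those ends was not scanned, so whether these genes lack the element was not tested. The members without an entry were Psmb1, Psmb2, Psmb7, Psma8, Psmc3, Psmd3 and Psmd7.

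**Figure D3:**
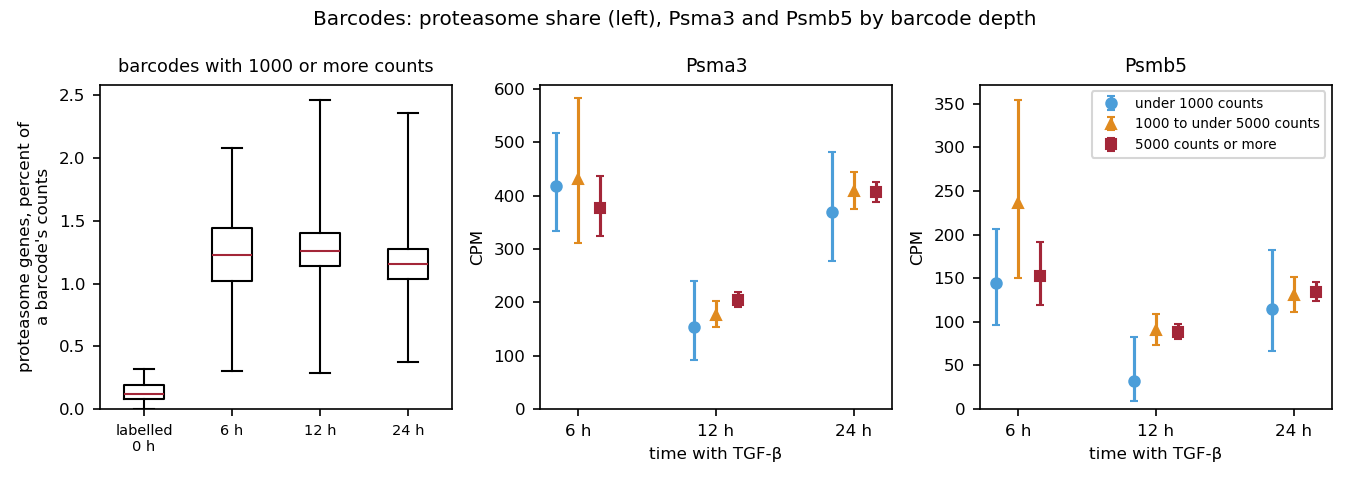
Left, share of each barcode's counts taken by the 46 genes in barcodes of at least 1000 counts, with boxes at the quartiles and whiskers at the lowest and highest barcode. Middle and right, Psma3 and Psmb5 in CPM at 6, 12 and 24 h in barcodes of 3 depths, with exact Poisson 95% intervals. Both genes are lowest at 12 h at every depth.

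Psma3 and Psmb5 share sequence with other annotated genes. In the last 600 bases of the GENCODE M21 transcripts, 53.6% of the distinct 51-base words of Psmb5 were also found in other annotated genes, as were 49.9% of those of Psma5, 22.6% of those of Psma3, 24.9% of those of Psmb3 and 29.9% of those of Psme2. Psma5 was also lower at 12 h, with 204 CPM (174 to 238) at 6 h, 140 (130 to 150) at 12 h and 180 (169 to 191) at 24 h, and 18.7 CPM from 2 counts in the library labelled 0 h. Psmb3 and Psme2 were not, at 1.01-fold (0.898 to 1.12) lower and 1.06-fold (0.861 to 1.31) higher at 12 h relative to 6 h. The genes sharing words with Psmb5 or Psma3 had no row in the count table. Psma5, Psmb3 and Psme2 shared words with 1, 2 and 1 genes that had one. Of the 2 genes for Psmb5, Mir686 overlaps its exons on the same strand. The sources used here do not say how reads matching several genes were counted, and the part of such reads in the dip was not tested.

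The other alpha genes moved less. Psma6 was the highest of them at 12 h relative to 6 h, with no count in the library labelled 0 h, 216 CPM (184 to 251) at 6 h, 316 (302 to 331) at 12 h and 233 (221 to 245) at 24 h, so that the 12 h level was 1.47-fold (1.25 to 1.73) above 6 h. Psma7, the most counted member, had 150 CPM in the library labelled 0 h, then 1644 (1555 to 1736), 1438 (1407 to 1470) and 1373 (1344 to 1403), and was 1.20-fold (1.13 to 1.27) lower at 24 h relative to 6 h. Psma4 had 318, 437, 517 and 475 CPM in time order, Psma2 18.7, 785, 705 and 780, and Psma1 56.2, 132, 143 and 120. All of these alpha subunits are structural. Summed, the alpha ring had 683 CPM in the library labelled 0 h, 3811 (3675 to 3951) at 6 h, 3457 (3408 to 3505) at 12 h and 3567 (3520 to 3615) at 24 h.

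The structural beta genes were flat or higher at 12 h. Psmb1 had 28.1 CPM in the library labelled 0 h, 835 (772 to 901) at 6 h, 1139 (1112 to 1168) at 12 h and 1015 (990 to 1040) at 24 h, 1.37-fold (1.26 to 1.48) higher at 12 h relative to 6 h. Psmb4 had no count there, then 302 (264 to 343), 409 (393 to 426) and 387 (372 to 403), 1.36-fold (1.19 to 1.56) higher. Both lay above their 6 h intervals in the later libraries. Psmb2 had 18.7, 152, 150 and 146 CPM and Psmb3 9.36, 457, 454 and 435 CPM in time order, with overlapping intervals in the TGF-β libraries. The beta ring summed to 56.2 CPM (20.6 to 122) in the library labelled 0 h, 2399 (2291 to 2510) at 6 h, 2941 (2897 to 2986) at 12 h and 2726 (2685 to 2768) at 24 h. The whole core, at 6210, 6398 and 6294 CPM in the TGF-β libraries, differed by 1.03 times (1.00 to 1.06) at 12 h against 6 h and by 0.984 times (0.970 to 0.998) at 24 h against 12 h. Without Psma3 these values were 1.07 (1.03 to 1.10) and 0.950 (0.936 to 0.964). These ratios are in CPM. The median log2 ratio of the core at 12 h against 6 h was 0.05 in CPM, -0.07 with TMM and -0.11 with DESeq2 size factors. At 24 h against 12 h it was -0.07, 0.05 and 0.06, so its direction depends on the scaling in both.

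The immunoproteasome was represented almost wholly by Psmb10. Psmb10, the trypsin-like replacement subunit, had no count in the library labelled 0 h, 65.5 CPM (48.8 to 86.1) at 6 h, 39.4 (34.4 to 44.9) at 12 h and 51.6 (46.1 to 57.6) at 24 h. It was 1.66-fold (1.20 to 2.26) lower at 12 h relative to 6 h and 1.31-fold (1.10 to 1.56) higher at 24 h relative to 12 h. Psmb8, the chymotrypsin-like replacement, had 2, 7 and 5 counts in the TGF-β libraries, or 2.57 CPM (0.311 to 9.28), 1.23 (0.495 to 2.54) and 0.811 (0.263 to 1.89). Psmb9, the caspase-like replacement, had 0, 2 and 2 counts there, where the count of 0 at 6 h has an exact upper limit of 4.74 CPM. Together the replacement genes made up 9.43% (7.14 to 12.2) of catalytic subunit counts at 6 h, 4.94% (4.34 to 5.60) at 12 h and 6.62% (5.94 to 7.35) at 24 h, and Psmb8 with Psmb9 0.356% (0.0431 to 1.28), 0.191% (0.0873 to 0.362) and 0.143% (0.0573 to 0.293). Psmb9 overlaps exons of Tap1 on the opposite strand, and the sources used here do not say whether strand was used in counting. Macrophage and leukocyte markers, from cells rich in immunoproteasome, summed to 7.70, 4.75 and 3.41 CPM in the TGF-β libraries, with 7 of the 11 in the table and Cd74 at 0 in each.

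Few genes of interferon response and antigen presentation were measured beside it. Of 18 such genes 4 were measured at 12 h against 6 h. Of these 0 passed 1.5-fold in either direction, beside 16.9% of all genes higher and 7.27% lower. At 24 h against 12 h 6 were measured, with 0 in either direction, beside 2.38% higher and 3.4% lower. At 24 h against 6 h 5 were measured, again with 0 in either direction, beside 13.5% and 8.95%. With so few genes measured, these counts cannot be told apart from those shares. Their median log2 ratio was 0.24, 0.10 and 0.27 in these 3 comparisons, against 0.15, -0.11 and 0.04 for all genes. At 24 h against 12 h 1 of the 6 was below 0, beside 67.7% of all genes. Tapbp, which loads peptides on class I molecules, had 16.7 CPM (8.89 to 28.5) at 6 h, 23.7 (19.9 to 28.1) at 12 h and 26.6 (22.7 to 31.0) at 24 h. H2-K1, a class I heavy chain, had 50.1, 63.3 and 67.8 CPM. Stat2, a transducer of interferon signals, had 10.3, 18.99 and 24.8 CPM, and Ifi35, an interferon-induced gene, 18.0, 20.04 and 23.7 CPM. At 24 h against 6 h Stat2 was not among the 5, as its mean lay under 20 CPM. B2m, the class I light chain, had 1031, 977 and 1016 CPM. Ifit1, Isg15, Irf7, Bst2 and Nlrc5 had no count at 6 h, where a count of 0 has an exact upper limit of 4.74 CPM. Their 12 and 24 h values are not given here, and they were chosen after their values were seen.

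The 19S cap genes were lower together at 24 h than at 12 h. All 17 had a log2 ratio below 0 and 16 lay below the median of all genes, with a median of -0.30 against -0.11, where 67.7% of all genes were below 0. By the 1.5-fold limit 0 were higher and 1 was lower. With TMM or DESeq2 size factors the cap median was -0.19 or -0.18, 16 of 17 were below 0 and 16 below the median of all genes. Psmd7, at a log2 ratio of -0.09, was the one above that median without these factors. The 14 core genes had a median of -0.07, with 10 below 0 and 6 below the median of all genes, and 5 below 0 with TMM. The cap summed to 5012 CPM (4856 to 5171) at 6 h, 5349 (5289 to 5410) at 12 h and 4247 (4196 to 4299) at 24 h, and to 1077 (889 to 1292) in the library labelled 0 h. In CPM, without those factors, the 24 h sum was 0.794 times (0.781 to 0.807) that at 12 h and 0.847 times (0.819 to 0.877) that at 6 h. As a share of core plus cap counts, cap genes made up 44.7% (43.6 to 45.7) at 6 h, 45.5% (45.2 to 45.9) at 12 h and 40.3% (39.9 to 40.7) at 24 h. Among barcodes of at least 1000 counts these shares were 46.0%, 45.6% and 40.3%. Over all barcodes but without Psma3 they were 46.3%, 46.3% and 41.9%.

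**Figure D4:**
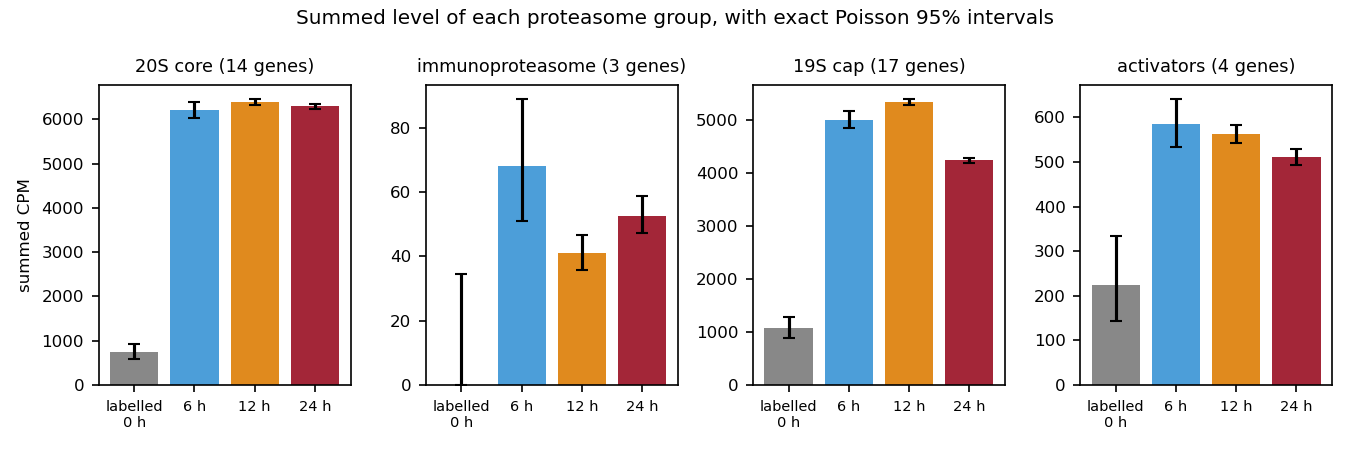
Summed CPM of the 14 core, 3 immunoproteasome, 17 cap and 4 activator genes in each library, with exact Poisson 95% intervals as error bars. The 19S cap bar at 24 h, at 4247 CPM, is below those at 6 and 12 h, while the core bars at 6, 12 and 24 h lie between 6210 and 6398 CPM.

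Among the ATPases, which unfold substrates, Psmc1 differed most. It had 112 CPM (58.0 to 196) in the library labelled 0 h, 376 (334 to 422) at 6 h, 460 (442 to 478) at 12 h and 302 (288 to 316) at 24 h, the last 1.52-fold (1.43 to 1.62) lower than at 12 h at a log2 ratio of -0.59, just past the limit. With TMM or DESeq2 scaling, or in barcodes of at least 1000 counts, 0 members were lower by 1.5-fold in that comparison. Psmc2 had 28.1, 190, 224 and 163 CPM in time order, and was 1.37-fold (1.26 to 1.49) lower at 24 h relative to 12 h. Psmc3, whose order was 65.5, 317, 351 and 308 CPM, was 1.14-fold (1.07 to 1.22) lower. Psmc4 had 56.2, 103, 145 and 115 CPM and was 1.41-fold (1.12 to 1.79) higher at 12 h relative to 6 h. Psmc5 had 65.5, 378, 399 and 328 CPM, and Psmc6 46.8, 275, 259 and 209 CPM. For all 6 the 24 h level lay below the 12 h level, beside 67.7% of all genes with a log2 ratio below 0. For 5 of 6 it lay below the 6 h level, beside 46.3% of all genes. Of the 17 cap genes, 15 were below 0 at 24 h against 6 h.

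The 11 other cap subunits followed the same order in most cases. Psmd1, the largest scaffold subunit, had 74.9 CPM in the library labelled 0 h, 403 (360 to 450) at 6 h, 511 (493 to 530) at 12 h and 350 (335 to 365) at 24 h, 1.46-fold (1.38 to 1.55) lower at 24 h relative to 12 h. Psmd2, a scaffold that docks ubiquitin receptors, had 74.9, 185, 218 and 166 CPM. Psmd4, a ubiquitin receptor, had 93.6, 343, 417 and 310 CPM and was 1.34-fold (1.26 to 1.43) lower at 24 h relative to 12 h. Psmd14, the deubiquitinase that removes the chain, had no count in the library labelled 0 h, then 446 (400 to 495), 376 (360 to 392) and 324 (310 to 339), and was the lowest of them at 24 h against 6 h, by 1.38-fold (1.22 to 1.54). Psmd7, its partner in the lid, had 103, 701, 623 and 584 CPM. Both were highest at 6 h.

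The remaining lid subunits are structural. Psmd6 had 18.7, 185, 244 and 182 CPM in time order, Psmd3 74.9, 78.3, 106 and 84.8, and Psmd13 9.36, 61.6, 70.5 and 55.5, each highest at 12 h. Psmd11 had 197, 312, 296 and 229 CPM and was 1.36-fold (1.18 to 1.56) lower at 24 h relative to 6 h. Psmd12 had 28.1, 470, 473 and 381 CPM, and Psmd8 28.1, 189, 177 and 155 CPM. These were about level at 6 and 12 h and lower at 24 h.

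The 3 assembly chaperones of the cap were below 0 at 24 h against 12 h, as were 67.7% of all genes. Their median log2 ratio was -0.10, against -0.11 for all genes, and 1 of 3 lay below that median of all genes. Psmd5 had 37.4 CPM in the library labelled 0 h, 135 (110 to 163) at 6 h, 98.1 (90.1 to 107) at 12 h and 92.3 (84.8 to 100) at 24 h, 1.46-fold (1.17 to 1.80) lower at 24 h relative to 6 h. Psmd9 had 9.36, 41.1, 33.6 and 30.7 CPM, with overlapping intervals in the TGF-β libraries. Psmd10, also known as gankyrin, had no count, then 89.9, 110 and 97.3 CPM. Summed in CPM, they were at 0.910 times (0.843 to 0.981) their 12 h level at 24 h. The cap was at 0.794 times (0.781 to 0.807). Against 6 h the chaperones were at 0.829 times (0.715 to 0.964), beside 0.847 times (0.819 to 0.877) for the cap.

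Activators open the gate of the core without ubiquitin. Psme1 and Psme2 encode the subunits of the interferon-inducible activator. Psme1 had 18.7 CPM in the library labelled 0 h, 127 (103 to 155) at 6 h, 102 (93.5 to 110) at 12 h and 112 (104 to 121) at 24 h. Psme2 had 18.7, 134 (109 to 162), 141 (132 to 151) and 150 (140 to 160) CPM. Neither passed 1.5-fold in a comparison of TGF-β libraries, and the 6 and 24 h intervals overlap for both. Psme2b, which shares 63.1% of its 51-base words with other genes, Psme2 among them, had 9.36, 18.0, 10.9 and 11.7 CPM, and its counts cannot be told apart from those of Psme2 with certainty. Psme3, the nuclear activator, had no count in the library labelled 0 h, then 51.4, 49.6 and 42.8 CPM. Psme4, a large activator of the nucleus, had 187 (114 to 289), 274 (238 to 313), 271 (257 to 285) and 207 (196 to 219) CPM and was 1.31-fold (1.21 to 1.41) lower at 24 h relative to 12 h. The inhibitor Psmf1 had no count, then 25.7, 25.3 and 21.1 CPM. Psmc3ip had 9.36, 53.9, 68.4 and 61.9 CPM. In CPM the 4 activators together were at 0.909 times (0.865 to 0.955) their 12 h level at 24 h. They were at 0.874 times (0.792 to 0.967) their 6 h level. Their median log2 ratio at 24 h against 12 h was -0.05, against -0.11 for all genes, with 2 of 4 below 0. The ratio of all members rose with TMM or DESeq2 scaling in that comparison, and the activator sum is given in CPM only.

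**Figure D5:**
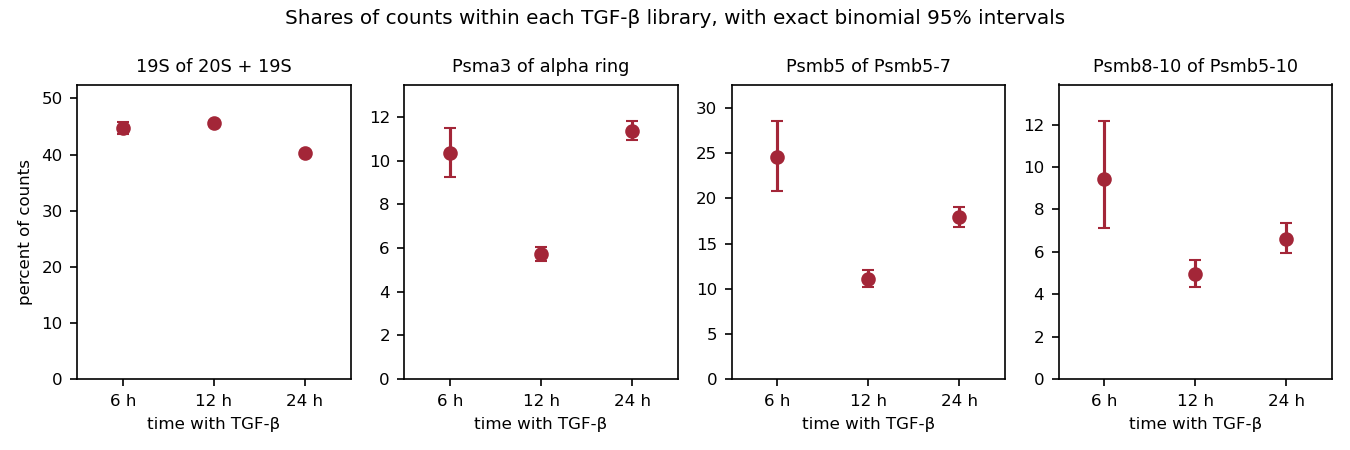
Percent of counts within each TGF-β library for cap genes among core and cap genes, Psma3 among alpha genes, Psmb5 among Psmb5, Psmb6 and Psmb7, and the replacement genes among all 6 catalytic genes, with exact binomial 95% intervals. The cap share is lowest at 24 h, at 40.3%, and the other shares are lowest at 12 h.

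Other genes of the pathway were taken from lists. Of 6 assembly factors outside the name pattern, 0 passed 1.5-fold at 12 h against 6 h, beside 16.9% of all genes higher and 7.27% lower. At 24 h against 12 h 0 passed, beside 2.38% and 3.4%, and at 24 h against 6 h 1 was higher, beside 13.5% of all genes. It was Akirin2, which brings proteasomes into the nucleus, with 46.2 CPM (32.4 to 64.0) at 6 h, 65.0 (58.6 to 72.0) at 12 h and 74.8 (68.1 to 81.9) at 24 h. Pomp, the maturation factor of the core, had 234, 305 and 255 CPM at 6, 12 and 24 h. Psmg1 had 42.4, 54.1 and 49.6 CPM and Psmg4 46.2, 35.9 and 35.2 CPM, both chaperones of core assembly. Of 8 cap partners, 1 was lower at 24 h against 6 h, beside 8.95% of all genes: Uchl5, a cap deubiquitinase, with 137 (113 to 166), 97.2 (89.3 to 106) and 79.8 (72.9 to 87.2) CPM. Usp14, another, had 171, 181 and 128 CPM, and the ubiquitin receptor Adrm1 158, 170 and 123. In that list 7 of 8 were below 0 at 24 h against 12 h, with a median of -0.24, beside 67.7% of all genes below 0 and a median of -0.11.

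Among genes of ubiquitin supply and conjugation, Rps27a, which encodes ubiquitin fused to a ribosomal protein, had 3295, 2486 and 3660 CPM at 6, 12 and 24 h, lowest at 12 h, and 25.4% of its 51-base words were shared with other genes. The conjugating enzyme Ube2l3 had 149, 105 and 129 CPM, also lowest at 12 h. Of the 8 genes in this list, 1 was lower by 1.5-fold at 12 h against 6 h, at a log2 ratio of -1.18, beside 7.27% of all genes. At 24 h against 12 h 1 was higher, at 0.96, beside 2.38%. Neither call fell on Rps27a or Ube2l3, and what was called is not reported here.

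Of 7 measured genes in the list of the segregase Vcp and the regulators of proteasome genes, 1 was higher by 1.5-fold and 0 lower at 12 h against 6 h, beside 16.9% and 7.27% of all genes. Their median log2 ratio was 0.41 with 0 below 0, beside 0.15 with 35.8% below 0 for all genes, and 1 of the 7 lay below that median. Ddi2, the protease that activates NRF1, had 27.0 CPM (16.7 to 41.2) at 6 h, 50.1 (44.5 to 56.3) at 12 h and 25.5 (21.6 to 29.8) at 24 h. Nfe2l1, which encodes NRF1, a transcription factor of proteasome genes, had 244 (211 to 281), 327 (312 to 342) and 279 (266 to 292) CPM. Vcp had 286 (250 to 326), 434 (417 to 451) and 306 (292 to 320) CPM, and Ngly1, which removes sugars from NRF1, 21.8, 33.4 and 39.2. At 24 h against 12 h 1 of 7 was lower, again Ddi2, beside 3.4% of all genes. At 24 h against 6 h 1 was higher, Ngly1, beside 13.5%.

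Against the library labelled 0 h most measured members were higher. Of 39 measured members each time, 36 were at least 1.5-fold higher at 6 h, 36 at 12 h and 35 at 24 h, and 0 were lower, beside 43.6%, 46.1% and 43.5% of all genes higher and 35.8%, 32.2% and 34.9% lower. These 3 comparisons share the 1 library and its tubule content, and single counts weigh 9.36 CPM there. The summed level was 5.81 times (5.09 to 6.66) as high at 6 h, 6.03 times (5.29 to 6.90) at 12 h and 5.42 times (4.76 to 6.21) at 24 h. By group the ratio at 24 h was 48.5 (22.3 to 132) for the beta ring, 5.22 (4.15 to 6.66) for the alpha ring, 3.95 (3.29 to 4.78) for the cap and 2.28 (1.53 to 3.56) for the activators. Psmb6 was higher by at least 16.2-, 23.3- and 20.7-fold at 6, 12 and 24 h, taking 3 counts as the level a count of 0 allows in that library.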

How the data were processed

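Whole-number counts, one per gene and barcode, were deposited for 4 libraries without normalization. The submitters' processing notes name STAR 2.5.3a and mm10. The sources used here do not say which counter, annotation, strand setting or handling of multiply mapped reads was used, or whether UMIs were collapsed. All barcodes were kept. CPM came from counts summed over the barcodes of a library. Intervals are exact Poisson for CPM, exact conditional binomial for ratios and Clopper-Pearson for shares. Log2 ratios used a pseudocount of 10 CPM, which understates differences of low genes, a minimum mean of 20 CPM and a limit of 1.5-fold. Doublets called by Scrublet (33, 9, 18 and 14 barcodes in time order) were kept, and left out in an alternative. Precision is lowest in the library labelled 0 h. Members and lists were chosen with earlier results of these data known. The rule for named genes took every library's value for catalytic, replacement, activator and inhibitor genes and, in each other group, the 2 members with the highest and the 2 with the lowest log2 ratios between TGF-β libraries, and the remaining members are given too. From each list it took up to 4 measured genes with the largest log2 ratios. Some genes it took are not reported here. B2m, Ifit1, Isg15, Irf7, Bst2 and Nlrc5 were added after their values were seen. Alternatives covered size factors, library totals, barcode filters and weights, doublets, pseudocounts, the minimum level and the fold limit. Those without Psma3 or by barcode depth were chosen after seeing the data. Calls were tested on simulated data. Tools were R 4.3.3 with edgeR 4.0.16 and DESeq2 1.42.0, for size factors only, and Python 3.11.15 with scanpy 1.11.5, scipy 1.17.1, pandas 2.3.3, numpy 2.4.6 and matplotlib 3.10.9.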

Additional observations from a re-analysis of the deposited data

How the results depend on the processing

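Alternatives changed one choice at a time, and no cause was tested. No paired analysis was possible because each time point has 1 library and the labels give no replicate numbers. The summed level at 12 h against 6 h was 0.955 times with TMM, 0.920 with DESeq2 size factors, 0.969 with totals without mitochondrial and ribosomal protein genes and 1.01 with equal weight per barcode. At 24 h against 12 h it was 0.980, 0.985 and 0.943 with the same 3 scalings. At 24 h against 6 h it was 0.906 with DESeq2, 0.913 with those reduced totals and 0.907 with equal weight. Against the library labelled 0 h, TMM gave 7.43, 6.98 and 6.95 times at 6, 12 and 24 h, barcodes with 1000 or more counts 7.92, 8.33 and 7.50, leaving out each gene's top barcode 6.85, 7.24 and 6.51, reduced totals 6.92 at 6 h and 6.32 at 24 h, and DESeq2 6.79 at 6 h. Counts of members moved by few genes. At 12 h against 6 h, 2 were higher in barcodes with 1000 or more counts, in those with 500 genes or more and with equal weight, and 0 were lower at a 2-fold limit. At 24 h against 12 h, 2 (Psma3 and Psmb5) were higher with TMM, DESeq2, reduced totals, equal weight and a pseudocount of 1, and 0 at 2-fold. There, 0 were lower with TMM, DESeq2, reduced totals, either barcode filter, without doublets, with a pseudocount of 50 or at 2-fold, 3 with equal weight and 2 with a pseudocount of 1, so the Psmc1 call rests on the setting. At 24 h against 6 h, 1 was lower under either barcode filter, and 1 was higher and 3 lower with equal weight. Against the library labelled 0 h, 1 was lower at every time with 500 genes or more, and at 12 and 24 h with 1000 counts or more. The replacement share at 24 h was 5.39% with equal weight. Psma3 stayed below 6 h at 12 h, at log2 ratios of -1.18 to -0.84, and above 12 h at 24 h, at 0.88 to 1.12, under every alternative run. Depth limits the library labelled 0 h most, where 14 of 46 members had no count.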

Other observations

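In the library labelled 0 h, Psma4, Psmd11 and Psme4 had the most counts of the members, with 34, 21 and 20 of the 225 proteasome counts. Those of Psma4 came from 32 barcodes, while the whole beta ring had 6 counts. At 6, 12 and 24 h Psma4 had 437, 517 and 475 CPM, against 318 CPM in the library labelled 0 h. Psmd11 had 312, 296 and 229 CPM, against 197 CPM, and Psme4 274, 271 and 207 CPM, against 187 CPM. Psmd3 was also close, at 78.3, 106 and 84.8 CPM, against 74.9 CPM. These genes were chosen after their values were seen. Exons of Psma4 overlap those of AY074887 on the opposite strand, and 13.9% of the 51-base words of Psma4 and 11.0% of those of Psmd11 were found in other genes, against 0% for Psme4.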
